A study of Mus musculus with 6 samples.

Results

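Esr1, Esr2, Pgr, Nr3c1 and Nr3c2 encode 5 steroid hormone receptors. They were taken by gene symbol, and all 5 were found among the 32285 genes counted in each library. Between them they had 16051 UMIs (unique molecular identifiers, each standing for 1 captured transcript) in 21442 retained cells. Their levels are described across autonomic ganglia, types of pelvic neurons, glia and the connective and vascular cells around them.

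The study sequenced single cells of whole ganglia from mouse pups of both sexes at postnatal day 5, in order to compare the pelvic ganglion with sympathetic and parasympathetic ganglia. The animals carried a Cre transgene and a Rosa allele from which Cre turns on the red fluorescent protein tdTomato. There were 2 pelvic libraries (pelvic_1 and pelvic_2) and 1 library each of the stellate and lumbar ganglia (the paravertebral sympathetic chain), the coeliac ganglion (prevertebral sympathetic) and the sphenopalatine ganglion (parasympathetic). The stellate, sphenopalatine and pelvic_1 libraries formed batch 1, made with version 2 of the 10x chemistry, and the coeliac, lumbar and pelvic_2 libraries formed batch 2, made with version 3, so that batch and chemistry cannot be told apart. All groups carried the same alleles and none was treated. The sources used here give neither the number of pups per library nor a division by sex, so that sexes cannot be compared, and p-values measure the spread between these few libraries.

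Steroid hormone receptors are transcription factors that are turned on by a ligand. The steroid crosses the cell membrane, binds the receptor, which chaperones hold ready in the cytoplasm or nucleus, and the receptor then binds DNA and recruits coactivators or corepressors. ESR1 and ESR2 bind oestrogens, PGR binds progesterone and its gene is a classical oestrogen target, NR3C1 is the glucocorticoid receptor, found in most cell types, and NR3C2 is the mineralocorticoid receptor, which also binds glucocorticoids. The pelvic ganglion innervates the bladder, the rectum and the reproductive organs, and is known as a target of sex steroids.

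In the mouse genome (GRCm38, GENCODE M21) Esr1 lies on the plus strand of chromosome 10 from 4611593 to 5005614, Esr2 on the minus strand of chromosome 12 from 76120419 to 76177259, and Pgr on the plus strand of chromosome 9 from 8899833 to 8968611. Nr3c1 lies on the minus strand of chromosome 18 from 39410545 to 39519421, and Nr3c2 on the plus strand of chromosome 8 from 76899442 to 77245012. All 5 are annotated as protein coding. Levels are given as CPM, the UMIs of a gene per 1000000 UMIs of the same cells, and are compared between cells for 1 gene, not between genes.

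Depth ranged from 37297629 to 103139097 UMIs in the retained cells of a library. They held 7052 neurons, 8233 glial cells, 3269 fibroblast-like, 723 endothelial-like, 422 mural-like (pericytes and vascular smooth muscle) and 526 macrophage-like cells. Neurons had a median of 36337 UMIs per cell and glial cells of 4425. The summed level of the 4 neuronal markers was 11002 to 16173 CPM in the neurons of the 6 libraries and 383.5 to 2367 in their glia, and that of the 8 glial markers was 9132 to 14212 CPM in glia and 33.3 to 169 in neurons. The 6 fibroblast markers summed to 34372 to 62736 CPM in fibroblast-like cells, 1831 to 7214 in glia and 65.0 to 253 in neurons. No marker of these lists was at 0 in any of these classes, and the part of such foreign RNA in the levels below was not tested. Between 0 and 49 cell barcodes were shared by a pair of libraries, at most 1.06% of the smaller one.

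**Figure D1:**
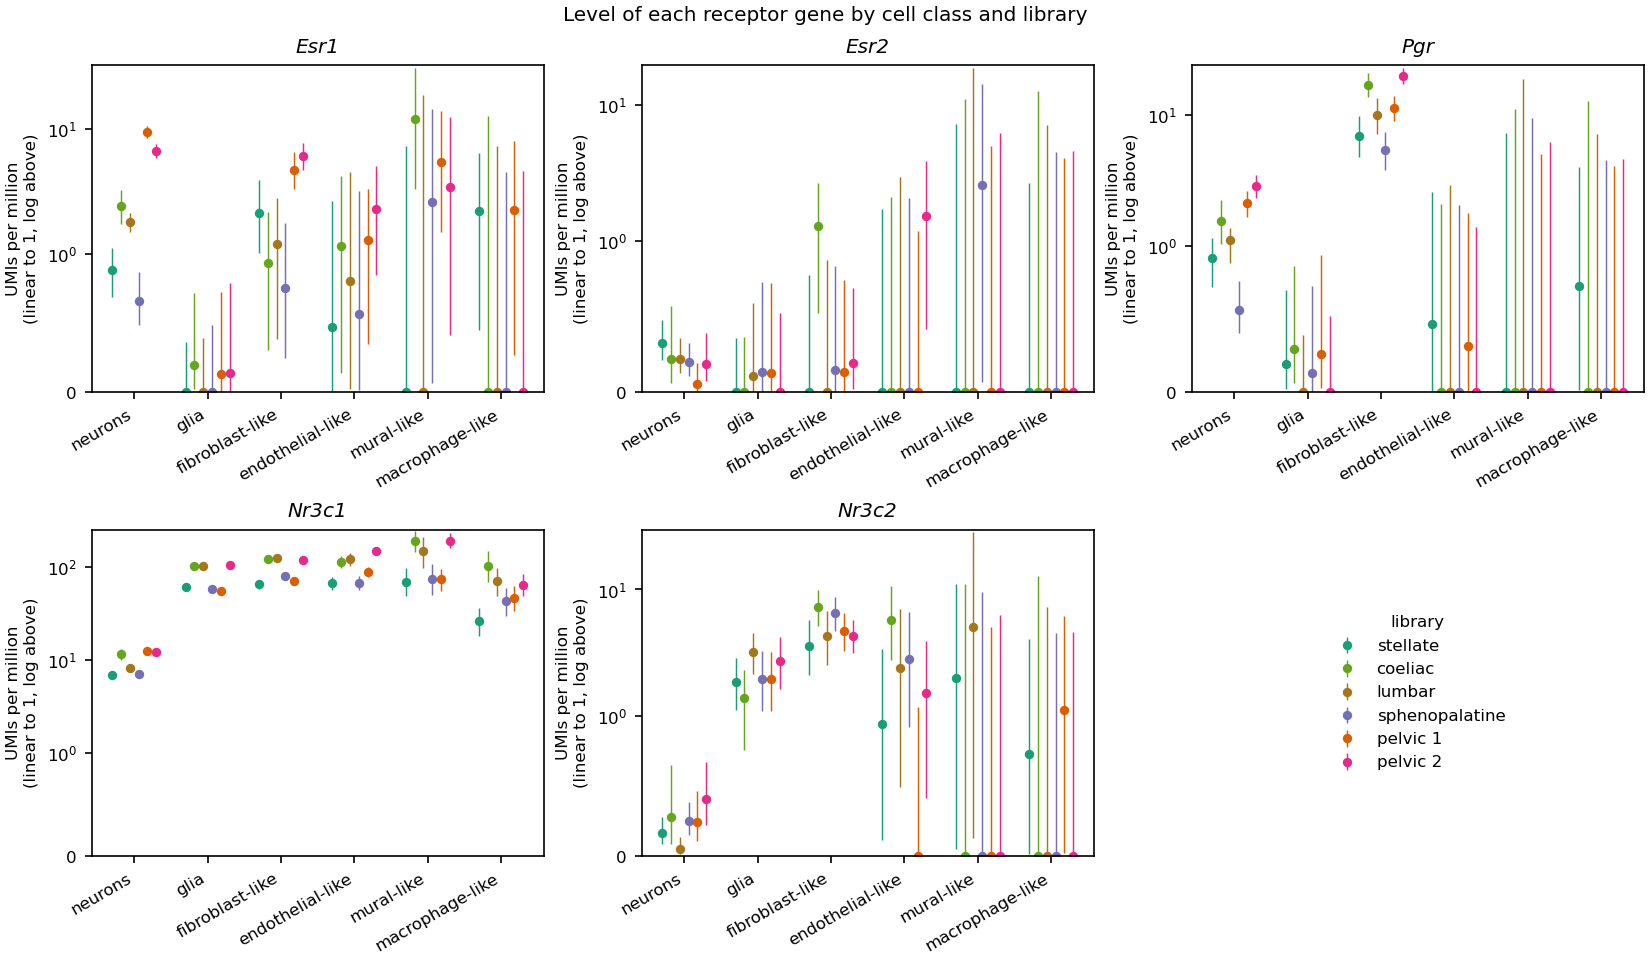
Level of each receptor gene (CPM, linear up to 1 and logarithmic above) in 6 cell classes. Each point is 1 of the 6 libraries and each bar its exact 95% Poisson interval. The 2 pelvic libraries have the highest Esr1 points among neurons (9.40 and 6.66), Pgr is highest in fibroblast-like cells (5.41 to 20.0), and the 6 neuronal points of Nr3c1 (6.94 to 12.6) lie below those of every other class.

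Esr1, the oestrogen receptor alpha, was found in neurons, fibroblast-like and mural-like cells and was near 0 in glia. Its mean level over the libraries was 3.63 CPM in neurons, 3.91 in mural-like and 2.62 in fibroblast-like cells. Of its 1145 UMIs, 883 were in neurons, which held more UMIs of all genes than any other class, 123 in fibroblast-like cells and 4 in glia. Neurons were at 9.40 CPM in pelvic_1, 6.66 in pelvic_2, 2.39 in the coeliac, 1.78 in the lumbar, 0.882 in the stellate and 0.658 in the sphenopalatine library. Both pelvic libraries were above the other 4. The intervals of the coeliac (1.73 to 3.22) and lumbar (1.49 to 2.12) levels overlapped, as did those of the stellate (0.687 to 1.11) and sphenopalatine (0.488 to 0.867) levels, while pelvic_1 (8.44 to 10.5) was above pelvic_2 (5.86 to 7.55) beyond counting error.

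Glia were at 0 in the stellate, lumbar and sphenopalatine libraries and at 0.130, 0.142 and 0.197 CPM in pelvic_1, pelvic_2 and the coeliac library, so that neuronal and glial levels did not overlap. In edgeR's quasi-likelihood test with the library as a block, Esr1 was higher in neurons than in glia by 5.19 ± 0.57 (log2, SE; n = 6 libraries; adjusted p = 1.34e-09). All 4 receptors tested were called in this comparison, 2 higher and 2 lower in neurons, beside 72.9% of all genes. Esr2 did not pass the filter on low counts in any comparison.

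Pelvic neurons had more Esr1 than neurons of the sympathetic ganglia. With the batch as a covariate, the mean of 8.03 CPM in the 2 pelvic libraries was higher than the 1.69 CPM of the stellate, coeliac and lumbar libraries by 2.45 ± 0.37 (log2, SE; adjusted p = 0.00459), or 5.46-fold. Of 4 receptors tested, Esr1 and Pgr were called, both higher, beside 10.3% of all genes called higher and 18.5% called in either direction. Within batch 1 the levels were 9.40 CPM in pelvic_1 and 0.882 in the stellate library, and within batch 2 they were 6.66 CPM in pelvic_2 against 2.39 and 1.78. In this fit batch 1 held only the stellate and pelvic_1 libraries. Leaving out either of them therefore left the same contrast, that of pelvic_2 against the coeliac and lumbar libraries. The log2 difference was 1.74 without the stellate library and 1.75 without pelvic_1, and the call was lost. These refits rest on 1 pelvic library and do not show which library carried the call. The sphenopalatine ganglion has 1 library and was not tested.

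A UMI of Esr1 was found in 28.8% of pelvic_1 neurons (95% Wilson interval 25.9 to 31.8) and in 34.8% of pelvic_2 neurons (30.1 to 39.8). The share was 9.28% in coeliac, 6.24% in lumbar, 2.52% in sphenopalatine and 2.06% in stellate neurons. In glia it was 0.0486%, at a median depth of 4425 UMIs, and in macrophage-like cells 0.951% (5 of 526 cells), at 7280.5 UMIs. Whether the UMIs in these classes are free RNA was not tested. The macrophage-like level of 1.07 CPM had an interval from 0.346 to 2.49. That interval holds the neuronal levels of all 4 libraries other than the pelvic ones, while the glial mean of 0.0782 CPM lies below each of them. Neurons were then thinned to 4000 UMIs each, and shallower ones were left out. Esr1 was left in 4.26% of pelvic_1 neurons (3.12 to 5.79), in 1.72% of both pelvic_2 and coeliac neurons, in 0.675% of lumbar, 0.264% of sphenopalatine and 0.185% of stellate neurons. At this depth the shares of pelvic_2 (0.790 to 3.70) and coeliac neurons (0.672 to 4.35) could not be distinguished, and they rest on 7 and 4 UMIs. On sums of thinned neurons, the difference between pelvic and sympathetic libraries was 2.94 on the log2 scale (adjusted p = 0.00131).

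Esr2, the oestrogen receptor beta, was scarce everywhere, with 92 UMIs in all retained cells and 70 of them in neurons. Neurons were at 0.328 CPM in the stellate, 0.222 in the coeliac, 0.221 in the lumbar, 0.197 in the sphenopalatine, 0.190 in the pelvic_2 and 0.0545 in the pelvic_1 library. These values rest on 2 to 26 UMIs each and all intervals overlapped one another except those of the stellate and pelvic_1 libraries. In pelvic neurons 9 UMIs of Esr2 stood beside 591 of Esr1. The P2-like and P3-like clusters described below had 0 UMIs of Esr2 in both libraries, where 3 UMIs would have been 0.151 and 0.334 CPM.

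Pgr, the progesterone receptor, was found in fibroblast-like cells and in neurons. Of its 977 UMIs, 496 were in fibroblast-like cells, 409 in neurons, 8 in glia, 2 in endothelial-like and 0 in mural-like cells. Fibroblast-like cells were at 20.0 CPM in pelvic_2, 17.1 in the coeliac, 11.4 in the pelvic_1, 9.96 in the lumbar, 6.96 in the stellate and 5.41 in the sphenopalatine library. Every one of these was above the level over all neurons of any library, though not above every cluster of pelvic neurons described below. The 422 mural-like cells had a median depth of 4913.5 UMIs, and their count of 0 limits the share with a detected UMI to 0.711%, not the share that expresses the gene.

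Against glia, Pgr was higher in fibroblast-like cells by 6.28 ± 0.41 (log2, SE; n = 6 libraries; adjusted p = 5.83e-13) and in neurons by 3.25 ± 0.43 (adjusted p = 1.67e-07). Glial levels were 0 to 0.296 CPM. In fibroblast-like cells all 4 receptors tested were higher than in glia, beside 24.6% of all genes called higher (50.2% in either direction).

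In neurons, Pgr was at 2.87 CPM in pelvic_2, 2.13 in pelvic_1, 1.56 in the coeliac, 1.12 in the lumbar, 0.920 in the stellate and 0.566 in the sphenopalatine library. The order of the libraries follows that of Esr1 except for the 2 pelvic libraries. Pelvic neurons were higher than sympathetic neurons by 1.16 ± 0.26 (log2, SE; adjusted p = 0.0212), 2.24-fold on means of 2.50 and 1.20 CPM. The call was lost without the batch term (log2 difference 1.09, adjusted p = 0.144). It was also lost without the stellate library (1.17), without pelvic_1 (1.18) and without pelvic_2 (1.16). As for Esr1, leaving out the stellate library or pelvic_1 gave the same contrast, and each of these refits rests on 1 pelvic library. The share of neurons with a UMI was 18.1% in pelvic_2, 8.17% in pelvic_1, 8.02% in the coeliac, 6.77% in the lumbar, 2.61% in the stellate and 2.05% in the sphenopalatine library, beside 0.0972% in glia. At equal depth 1.12% of pelvic_1 (0.610 to 2.05) and 0.860% of pelvic_2 neurons kept one, against 0.450% or less in the others. The pelvic_2 share rests on very few UMIs, and whether it lies above the others at this depth was not tested.

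Nr3c1, the glucocorticoid receptor, was the most widely detected, with 13407 UMIs, and neurons were its lowest class. Neuronal levels were 12.6 CPM in pelvic_1, 12.3 in pelvic_2, 11.5 in the coeliac, 8.17 in the lumbar, 7.02 in the sphenopalatine and 6.94 in the stellate library. Glia were at 55.1, 107, 104, 103, 58.3 and 61.8 CPM in the same order. No neuronal value overlapped a glial one, and the difference was a fall by 2.92 ± 0.15 (log2, SE; adjusted p = 2.71e-17) in neurons against glia. Although neurons had more UMIs per cell, 25.7% of them held a UMI of Nr3c1, against 33.6% of glia.

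Outside neurons the level of Nr3c1 separated the batches. Glia were at 55.1 to 61.8 CPM in batch 1 and 103 to 107 in batch 2, fibroblast-like cells at 65.4 to 79.4 and 120 to 124, and endothelial-like cells at 66.7 to 89.4 and 114 to 149. Mural-like cells were at 69.5 to 75.2 CPM in batch 1 and 148 to 193 in batch 2, and macrophage-like cells at 26.2 to 46.7 and 65.0 to 104. With the library as a block, Nr3c1 was higher than in glia by 0.41 ± 0.14 in fibroblast-like (log2, SE; adjusted p = 0.0133), 0.36 ± 0.14 in endothelial-like (adjusted p = 0.0284) and 0.52 ± 0.15 in mural-like cells (adjusted p = 0.00732). These small differences did not hold throughout. That of fibroblast-like cells was lost without the sphenopalatine library (adjusted p = 0.0623) and that of mural-like cells without pelvic_2 (0.0627), while that of endothelial-like cells was lost without the stellate library (0.104), without pelvic_1 (0.184) or without pelvic_2 (0.0808).

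Between pelvic and sympathetic neurons Nr3c1 did not pass the test, with a log2 difference of 0.56 ± 0.19 (SE; adjusted p = 0.0931). It passed without the coeliac library (0.71, adjusted p = 0.00626) and without the filter on low counts (0.57, adjusted p = 0.0259). In glia, where 2 receptors could be tested and none was called beside 3.67% of all genes (491 genes), the difference of Nr3c1 was -0.04 ± 0.10 (adjusted p = 0.897).

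Nr3c2, the mineralocorticoid receptor, had 430 UMIs, of which 197 were in fibroblast-like cells, 112 in glia, 65 in neurons and 24 in endothelial-like cells. Fibroblast-like cells were at 7.26 CPM in the coeliac, 6.46 in the sphenopalatine, 4.68 in the pelvic_1, 4.32 in the pelvic_2, 4.27 in the lumbar and 3.59 in the stellate library. Glia were at 1.38 to 3.19 CPM and neurons at 0.0553 to 0.406, so that the 3 classes did not overlap. Against glia, Nr3c2 was higher in fibroblast-like cells by 1.33 ± 0.39 (log2, SE; adjusted p = 0.00515) and lower in neurons, where it fell by 3.16 ± 0.43 (adjusted p = 8.15e-08). In neurons, the 4 to 19 UMIs per library gave no call between pelvic and sympathetic ganglia (log2 difference 1.22 ± 0.69, adjusted p = 0.285).

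In vascular cells Esr1 was also above its glial level. It was higher in mural-like cells by 5.25 ± 0.89 (log2, SE; adjusted p = 1.44e-05) and in endothelial-like cells by 3.58 ± 0.80 (adjusted p = 0.000294), but on only 11 and 15 UMIs. The endothelial-like mean over the libraries was 1.09 CPM. This lies within the macrophage-like interval given above and above the glial mean of 0.0782 CPM, and the part of free RNA was not tested. Mural-like cells were at 12.0 CPM in the coeliac, 5.46 in the pelvic_1, 3.42 in the pelvic_2 and 2.59 in the sphenopalatine library and at 0 in the stellate and lumbar libraries, with intervals that overlapped. With Nr3c1, 2 of 4 receptors tested were called higher in each of these classes, beside 15.1% of all genes in mural-like (35.7% in either direction) and 27.1% in endothelial-like cells (58.4%).

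**Figure D2:**
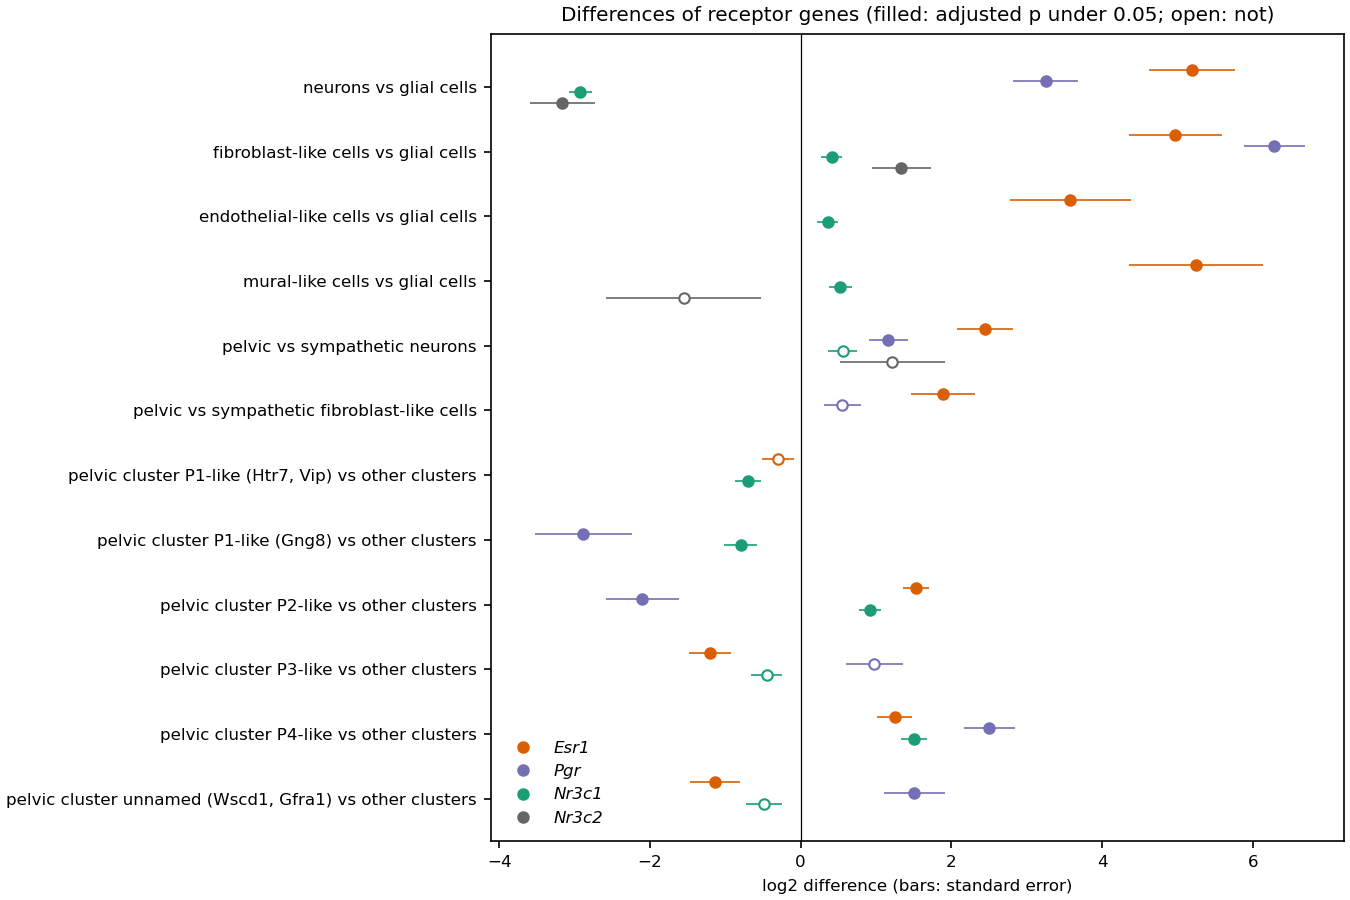
Log2 differences of the receptor genes in 12 comparisons, with standard errors as bars. Filled points passed the adjusted p threshold of 0.05 in edgeR's test and open points did not. Estimates with an unadjusted p of 0.5 or more, or with a large standard error, are not drawn. Among those left out are Pgr in mural-like cells against glia (-4.01 ± 3.82) and the whole comparison of pelvic and sympathetic glia. Esr1 is right of 0 in neurons and all stromal classes against glia, and in pelvic against sympathetic neurons (2.45), while among pelvic clusters it is right of 0 in the P2-like (1.53) and P4-like (1.25) clusters and left of 0 in the P3-like cluster (-1.20).

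Pelvic neurons were divided into clusters without use of the receptor genes and the related lists. Genes that vary with a receptor stayed in, and the same cells were then tested. The p-values between clusters are therefore not independent of the clustering. There were 7 clusters among 1258 neurons, and 5 of them held enough markers of the study's groups P1 to P4 to be named. The P2-like cluster (352 cells) was led by Grp, Nccrp1 and Slc35d3, the P3-like cluster (165 cells) by Th and Slc6a2, genes of noradrenaline synthesis and uptake, and the P4-like cluster (93 cells) by Brinp3, Pgm5 and Vcan. P1-like neurons formed 2 clusters, one of 333 cells led by Htr7, Tgfbi and Galnt9 and one of 129 cells led by Gng8 and Pcp4l1. A cluster of 106 cells led by Wscd1 and Gfra1 and one of 80 cells led by Cxcl10, Gask1b and Mal stayed unnamed, and the last had only 8 cells in pelvic_2 and was not tested. Each of the other 6 was compared with the mean of the remaining 5, with the library as a block. The P1-like and P2-like clusters could not be followed without the correction between the batches. Without it the P2-like cluster held 1 cell of pelvic_1 and 94 of pelvic_2.

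**Figure D3:**
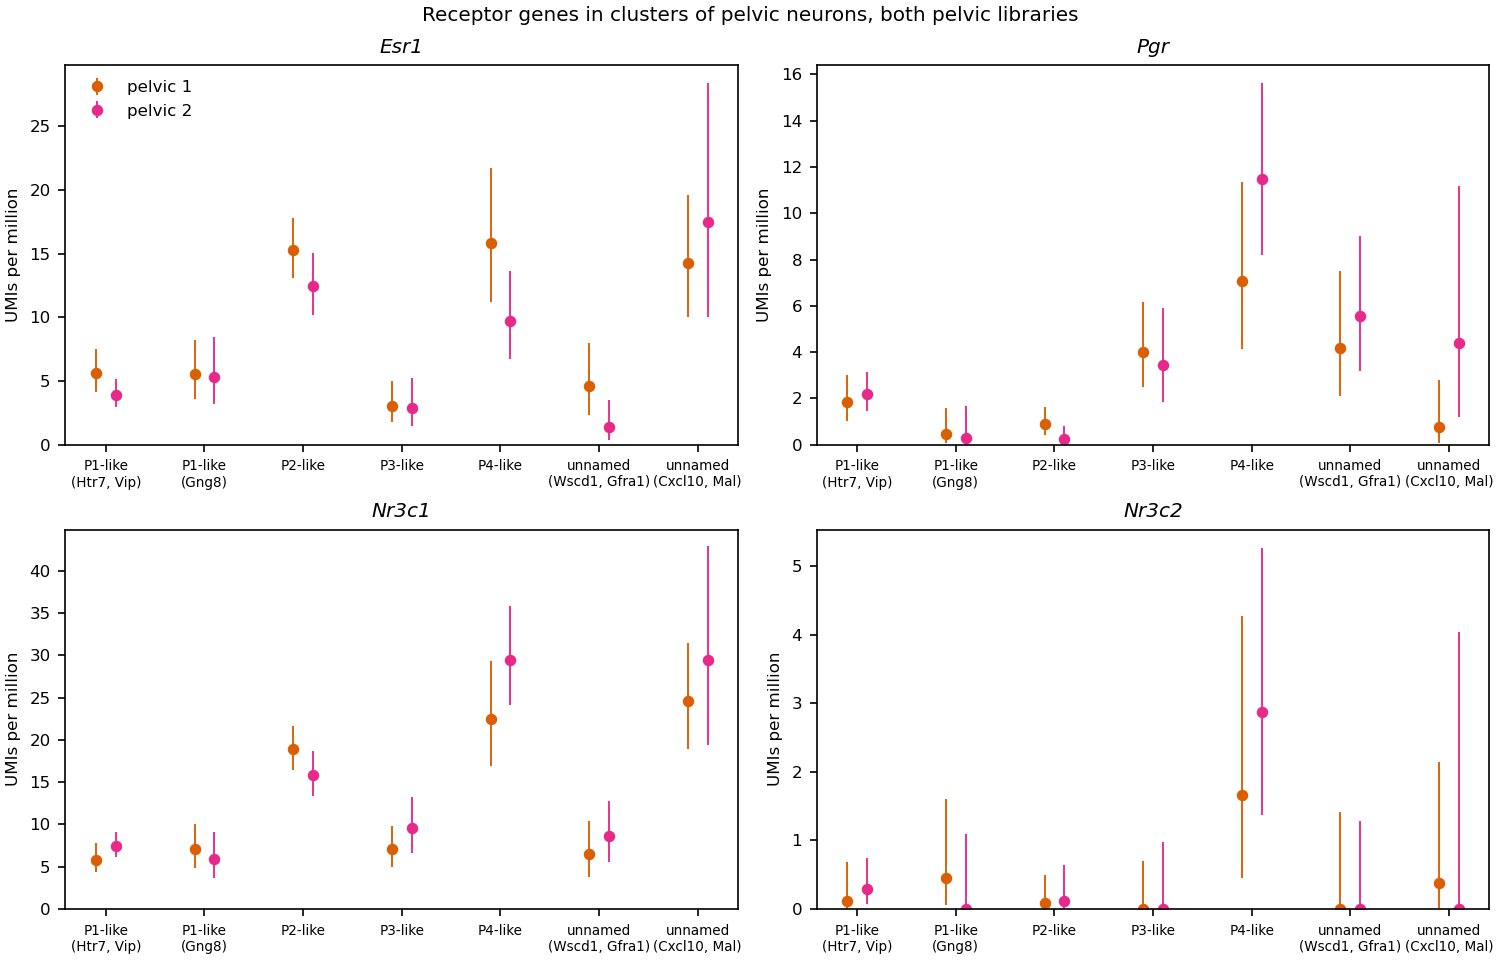
Level of 4 receptor genes (CPM, axes from 0) in 7 clusters of pelvic neurons. Each point is 1 of the 2 pelvic libraries and each bar its exact 95% Poisson interval. Esr1 is high in the P2-like (15.3 and 12.5) and P4-like clusters (15.8 and 9.74), Pgr is highest in the P4-like cluster (7.08 and 11.5) and near 0 in the P2-like and Gng8-led P1-like clusters, and 14 of the 24 Nr3c2 UMIs are in the P4-like cluster.

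Among the clusters tested, Esr1 was highest in P2-like and P4-like neurons. The P2-like cluster was at 15.3 CPM in pelvic_1 and 12.5 in pelvic_2, and the P4-like cluster at 15.8 and 9.74. The other named clusters were at 5.61 and 3.93 (P1-like, led by Htr7), 5.56 and 5.34 (P1-like, led by Gng8), and 3.07 and 2.91 (P3-like). In both libraries the P2-like and P4-like clusters were above all clusters tested other than each other. The intervals of the P3-like cluster, led by Th, were 1.75 to 4.98 in pelvic_1 and 1.45 to 5.21 in pelvic_2. Both overlapped those of coeliac and lumbar neurons given above and lay above that of stellate neurons. Pelvic clusters were not tested against sympathetic neurons.

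In the test, Esr1 was higher in the P2-like cluster by 1.53 ± 0.17 (log2, SE; adjusted p = 2.28e-06) and in the P4-like cluster by 1.25 ± 0.23 (adjusted p = 0.000392). It was lower in the P3-like cluster, by -1.20 ± 0.28 (adjusted p = 0.00349), and in the unnamed cluster led by Wscd1, by -1.13 ± 0.33 (adjusted p = 0.0296), which had 4.58 and 1.38 CPM and lost its call under DESeq2 (adjusted p = 0.0897) and without doublets (0.0538). Neither P1-like cluster passed (-0.30 ± 0.21 and -0.14 ± 0.26). Of 3 receptors tested in each, the P2-like cluster had 2 called higher and 1 lower beside 22.5% of all genes, the P4-like 3 higher beside 27.6% (14.9% higher), the P3-like 1 lower beside 24.4% (12.0% lower), the Wscd1-led 1 higher and 1 lower beside 14.1%, the Htr7-led 1 lower beside 10.9% (3.22% lower) and the Gng8-led 2 lower beside 25.5% (11.9% lower).

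A UMI of Esr1 was found in 48.3% of P2-like neurons, 37.6% of P4-like, 25.6% and 22.2% of the Gng8-led and Htr7-led P1-like, 13.3% of P3-like and 12.3% of Wscd1-led neurons, at median depths of 37002 to 47058 UMIs. At 4000 UMIs a cell, 5.49% of P2-like, 6.59% of P4-like and 1.82% of P3-like neurons kept one, on 19, 7 and 3 UMIs. In pelvic_2 alone these shares were 2.22%, 3.03% and 3.03%, on 2, 2 and 1 UMIs. Their intervals overlapped, so that at this depth pelvic_2 did not show the order. The small unnamed cluster led by Cxcl10 had 14.3 and 17.5 CPM, on 37 and 16 UMIs.

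Pgr followed another order. The P4-like cluster was at 7.08 CPM in pelvic_1 and 11.5 in pelvic_2, the Wscd1-led cluster at 4.20 and 5.54, the P3-like cluster at 4.02 and 3.44, and the Htr7-led P1-like cluster at 1.83 and 2.19. The P2-like cluster, high in Esr1, was at 0.896 and 0.228 CPM and the Gng8-led P1-like cluster at 0.445 and 0.297, on 12 and 3 UMIs. In both libraries these last 2 clusters were below the other 4 tested.

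The P4-like cluster was higher by 2.51 ± 0.34 (log2, SE; adjusted p = 1.53e-05) and the Wscd1-led cluster by 1.51 ± 0.41 (adjusted p = 0.0191). The P2-like cluster was lower, by -2.10 ± 0.48 (adjusted p = 0.00362, but 0.0688 without doublets), and the Gng8-led cluster by -2.88 ± 0.65 (adjusted p = 0.00317). The P3-like cluster missed the threshold (0.98 ± 0.38, adjusted p = 0.0678). It passed with the clustering resolution set to 0.6 (adjusted p = 0.0201) and without the filter on low counts (0.0477). At resolution 0.6 it again held 165 cells but was compared with other clusters. A UMI was found in 37.6% of P4-like, 19.8% of Wscd1-led, 18.8% of P3-like, 9.61% of Htr7-led, 3.41% of P2-like and 2.33% of Gng8-led neurons.

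Nr3c1 was again high in P4-like and P2-like neurons. The P4-like cluster was at 22.5 and 29.5 CPM and the P2-like cluster at 18.9 and 15.9, while the other 4 tested lay between 5.85 and 9.53. The 2 groups of clusters did not overlap in either library. The log2 differences were 1.51 ± 0.17 in the P4-like (SE; adjusted p = 1.96e-06) and 0.93 ± 0.15 in the P2-like cluster (adjusted p = 0.000118, but 0.0699 at resolution 0.6), and -0.70 ± 0.17 and -0.79 ± 0.22 in the Htr7-led and Gng8-led P1-like clusters (adjusted p = 0.0112 and 0.0122). At resolution 0.6 the P2-like cluster held 191 cells in place of 352. An unnamed cluster of 161 cells, with Slc35d3 among its leading genes, then stood among the clusters it was compared with. That refit is therefore not a test of the same cells. The P3-like cluster did not pass (-0.45 ± 0.20, adjusted p = 0.116). In CPM, even the P4-like level stayed below the 55.1 and 107 of the glia in the same libraries. By share the order was the reverse. A UMI of Nr3c1 was found in 65.6% of P4-like neurons, above the share of all glia given earlier. These neurons had a median of 47058 UMIs per cell, far deeper than glia, and CPM divides by that depth.

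Nr3c2 was too rare in pelvic neurons to be tested by cluster. The P4-like cluster held 14 of its 24 UMIs, at 1.67 CPM in pelvic_1 and 2.87 in pelvic_2, and the other clusters were at 0.445 CPM or less. P4-like neurons were thus high in Esr1, Pgr and Nr3c1 by test and in Nr3c2 by count.

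Neurons with UMIs of several receptors were counted in the pelvic ganglion. Of 1258 neurons, 384 had a UMI of Esr1, 139 of Pgr and 510 of Nr3c1. Esr1 and Pgr were found together in 47 neurons, 12.2% of those with Esr1 and 33.8% of those with Pgr. In the P4-like cluster they were together in 17 of 93 cells, 48.6% of the 35 with Esr1 and of the 35 with Pgr, and in the P2-like cluster in 6 of 352 cells, 3.53% of the 170 with Esr1 and 50% of the 12 with Pgr. Esr1 and Nr3c1 were together in 201 neurons, 52.3% of those with Esr1, and in 97 P2-like neurons. Deeper cells have more chances of both, so these counts are descriptions.

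**Figure D4:**
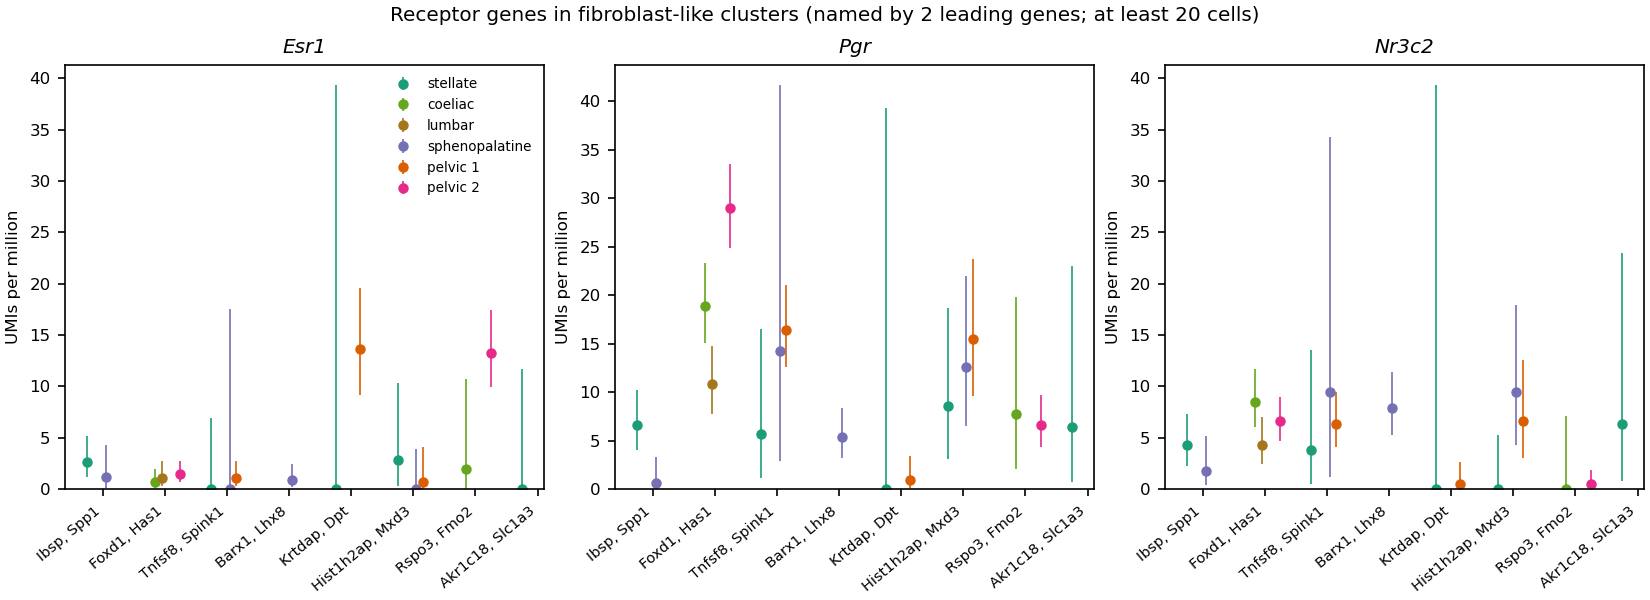
Levels of Esr1, Pgr and Nr3c2 (CPM, axes from 0) in 8 clusters of fibroblast-like cells, each named by 2 leading genes. Points are libraries with at least 20 cells in the cluster and bars are exact 95% Poisson intervals. Esr1 stands at 13.7 and 13.3 in the 2 clusters led by Krtdap and Dpt and by Rspo3 and Fmo2, where Nr3c2 is at 0.511 or less, while Pgr reaches 28.9 in the cluster led by Foxd1 and Has1.

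Fibroblast-like cells were not uniform in their receptors. Esr1 was concentrated in 2 of 8 clusters. One (388 cells, led by Krtdap, Dpt and Clec3b) was drawn mostly from pelvic_1, where 340 cells were at 13.7 CPM, and the other (249 cells, led by Rspo3, Fmo2 and Tcf21) mostly from pelvic_2, where 207 cells were at 13.3 CPM. They held 29 of the 35 Esr1 UMIs of fibroblast-like cells in pelvic_1 and 52 of the 63 in pelvic_2. The other 6 clusters were at 0 to 2.31 CPM over all libraries. These cells were clustered without a correction between the batches. Each of these 2 clusters is mostly of 1 library, and cluster and library cannot be told apart. Both had Dpt, Gdf10 and Sult1e1 among their leading genes, and whether they are 1 population divided by batch was not tested.

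Pgr was highest in the cluster led by Foxd1 and Has1. Its pelvic_2 cells were at 28.9 CPM, its coeliac cells at 18.8 and its lumbar cells at 10.8. It was at 16.4 CPM in the pelvic_1 cells of the cluster led by Tnfsf8 and Spink1, and at 0.942 and 6.64 CPM in the 2 Esr1-rich clusters of pelvic_1 and pelvic_2. Nr3c2 was at 6.59 CPM over all libraries in the Foxd1-led and 6.18 in the Tnfsf8-led cluster, and at 0.411 and 0.657, on 1 and 3 UMIs, in the Esr1-rich ones. Nr3c1 was found in all 8 clusters, at 48.7 to 144 CPM.

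Over all fibroblast-like cells, Esr1 was at 6.05 CPM in pelvic_2, 4.68 in pelvic_1, 2.11 in the stellate, 1.19 in the lumbar, 0.930 in the coeliac and 0.752 in the sphenopalatine library. Both pelvic libraries were above the others. Pelvic against sympathetic libraries, the log2 difference was 1.89 ± 0.42 (SE; adjusted p = 0.0483), the only one of 4 receptors called, beside 5.12% of all genes (2.87% higher). This call lay close to the threshold and was lost under DESeq2 (adjusted p = 0.169), with doublets removed (0.0794), without the batch term (0.400) and without the coeliac (0.109), lumbar (0.114) or pelvic_2 library (0.406). Where every class competed for the name of a cluster, an alternative added after seeing the data, the Krtdap-led cluster stayed unnamed and the difference was 1.28 (adjusted p = 0.429). Pgr did not pass (0.56 ± 0.24, adjusted p = 0.289).

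Whether the difference between pelvic and sympathetic ganglia was larger in neurons than in glia was tested directly. None of the 4 receptors tested passed, beside 1.5% of all genes (229 of 15287). The log2 values were 1.26 ± 1.47 for Esr1 (adjusted p = 0.824), 1.34 ± 1.47 for Pgr (adjusted p = 0.814), 0.74 ± 0.32 for Nr3c1 (adjusted p = 0.418) and 1.15 ± 0.91 for Nr3c2 (adjusted p = 0.722). Esr1 had 4 UMIs and Pgr 8 in all glia, and of genes simulated with a difference of 2-fold this test recovered 6%.

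Genes that work with the receptors were counted from lists. Of 14 glucocorticoid response genes, genes known to be induced by glucocorticoids in many tissues, 4 were higher and 9 lower in neurons than in glia, where 72.9% of all genes were called in either direction, with a median log2 difference of -1.55 beside 0.02 over all genes. Cebpd (-5.09), Mt1 (-4.08) and Klf9 (-2.13) were lower, and Zbtb16 was higher by 4.82 (adjusted p = 2.43e-08). In fibroblast-like cells 9 of the 14 were higher than in glia and 3 lower (median 0.89 beside -0.05, with 50.2% of all genes called), among them Sgk1, a kinase that regulates ion transport (1.61), and Errfi1 (1.39).

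Of 11 receptor chaperones, 9 were higher in neurons than in glia and 1, St13, was lower (median 0.67), again beside 72.9% of all genes called, as for the 3 lists that follow. Hsp90aa1 was higher by 1.56 and Hsp90ab1, which encode the chaperone that holds steroid receptors, by 1.18, and Fkbp5, a co-chaperone that also stands in the glucocorticoid list, by 1.11. Of 9 coregulators 4 were lower in neurons, among them Nrip1 (-0.97), and none was higher. Of 8 membrane steroid receptors 6 were higher, with Paqr9 at 3.97 and Paqr8 at 2.08, and Paqr6 fell by 6.72. Of 14 measured genes of steroid metabolism 6 were tested and 4 were lower, such as Hsd17b4 (-2.20), an oxidoreductase of oestradiol.

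The oestrogen-related receptors and oestrogen response genes were few. Of the 3 related receptors only Esrra passed the filter against glia, and it was lower in neurons (-1.05). Of 4 oestrogen response genes 1, Igfbp4, was lower in neurons than in glia (-4.83). For both lists, 72.9% of all genes were called in that comparison. In fibroblast-like cells against glia, 3 of the 4 were higher, Cxcl12 (6.61), Igfbp4 (2.14) and Xbp1 (1.24), while Greb1 was lower (-1.72). Of all genes, 24.6% were called higher there and 50.2% in either direction.

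Between pelvic and sympathetic neurons, 6 of 13 tested glucocorticoid response genes were higher and 2 lower (median 0.40 beside -0.02 over all genes), where 18.5% of all genes were called. Zbtb16 (2.35), Cebpd (1.24) and Dusp1 (1.20) were higher, and Sgk1 (-1.05) and Fkbp5 (-0.67) were lower. The paper probed Zbtb16, a transcriptional repressor, by in situ hybridization in embryos after it was seen expressed in the parasympathetic sphenopalatine ganglion. That figure's title states that pelvic cells do not express the parasympathetic markers. The higher level here is of RNA counts at postnatal day 5, another stage and method, and was not set against those images. The place of Zbtb16 in the list does not name a cause, and what sets its level in pelvic neurons was not tested. Srd5a1, which reduces testosterone and progesterone at their A ring, was higher by 1.41 (adjusted p = 0.000664), and of the membrane receptors Paqr5 (1.49) and Paqr8 (1.09) were higher. Nrip1, a corepressor of oestrogen receptors, was higher by 0.67, and Xbp1 was lower by -0.56. The 8 glial markers, none of them at 0, summed to 169 and 114 CPM in pelvic and to 95.1, 33.3 and 35.2 CPM in stellate, coeliac and lumbar neurons, and Cebpd and Klf9, higher in pelvic neurons, are also genes with a higher level in glia than in neurons. The part of glial RNA in these differences was not tested.

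In glia, 3 of 13 tested glucocorticoid response genes were higher in pelvic libraries, Nfkbia (1.34), Mt2 (1.09) and Mt1 (0.69), while 10 were not called and the other lists had no call, beside 3.67% of all genes. In fibroblast-like cells 4 of 13 were higher, Nfkbia (1.52), Mt2 (1.36), Mt1 (1.06) and Dusp1 (0.72), and 9 were not called, beside 5.12% of all genes. Of the 4 oestrogen response genes, Cxcl12 was lower there (-0.73). In the same cells Hsd11b2, the enzyme that inactivates glucocorticoids, was higher by 4.22 (adjusted p = 0.00234) on means of 13.7 and 0.680 CPM. Sult1e1, which inactivates oestrogens by sulfation, had a mean of 26.3 CPM in the pelvic libraries and 0 UMIs in the 3 sympathetic ones. Sult1e1 was also among the 10 leading genes of both Esr1-rich fibroblast-like clusters.

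Among pelvic clusters, the P4-like cluster had 6 of 13 glucocorticoid response genes higher and none lower (median 0.31 beside -0.02, with 27.6% of all genes called), with Zbtb16 at 2.95, Mt1 at 1.38 and Klf9 at 1.07. It was also higher in Srd5a1 (1.93), Star (2.65), which carries cholesterol into mitochondria for steroid synthesis, and the oestrogen response genes Cxcl12 (3.26) and Igfbp4 (1.79), and lower in Gper1 (-2.73), a membrane oestrogen receptor, in Nrip1 (-0.76) and in Hsd17b12 (-0.32). The P2-like cluster, also high in Nr3c1, had 2 of the 13 higher (Dusp1 at 1.08 and Per1 at 0.64) and 4 lower, beside 22.5% of all genes called. Of the 4 oestrogen response genes Greb1 was higher (1.64) and Igfbp4 lower (-1.31), and of 7 tested genes of steroid metabolism Srd5a1 was higher (0.80) and Hsd17b12 lower (-0.34). Of the membrane receptors Paqr5 (3.40) and Paqr7 (0.44) were higher. The P3-like cluster had 2 of the 13 higher and 6 lower (median -0.24), beside 24.4% of all genes called. The P1-like clusters, both low in Nr3c1, had more of the 13 higher than lower. The Htr7-led had 2 higher and none lower, beside 10.9% of all genes called. The Gng8-led had 4 higher and 2 lower, beside 25.5%. The Wscd1-led cluster had none higher and 1 lower, beside 14.1%. Of 9 coregulators the P4-like cluster had 2 higher beside the lower Nrip1.

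The genes whose level ran most closely with each receptor were found by Pearson's r of log2(CPM + 1) over 36 sums of class and library, among 13387 genes. The sums share libraries, depth and cell class, and r is given as a description. For Esr1 they included Cstad (r = 0.66) and Slc35d3 (0.66). They were, for Pgr, Xpnpep2 (0.94), Cpz (0.93) and Slc22a3 (0.93), for Nr3c1, Rest (0.97), Zfp36l1 (0.95) and Dock1 (0.95), and for Nr3c2, Itm2a (0.80), Frem1 (0.80) and Slc35f5 (0.78). Esr2 had fewer than 100 UMIs and was not searched.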

How the data were processed

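The values used are raw counts that the authors deposited. Each is the number of UMIs of a gene in 1 droplet called as a cell, made with Cell Ranger 6.0.1 on mm10 per the submitters' processing notes, and not normalized. All 6 libraries were used. A droplet was retained where its genes numbered more than 1500 and fewer than 11000 and mitochondrial UMIs made up less than 15% (median depth per library 5814 to 18528.5 UMIs). Neurons had a mean sctransform 0.4.2 value (R 4.3.3) of neuronal markers above 3, the study's threshold. Their mean of glial markers was under 1.15, where the histogram of that mean has its valley. Cells above the neuronal threshold that failed the glial rule (226 cells) were left out. The remaining cells that were not neurons, and pelvic neurons alone, were clustered at Louvain resolution 0.8 and 0.3. This used 3000 variable genes without the receptors and related lists, 50 principal components and 20 neighbours (Python 3.11.15, python-igraph 0.11.9). Pelvic components were used after a mutual nearest neighbours correction between the batches. A cluster was named where at least 3 markers of the class were detected and raised, and stayed unnamed where its 10 leading genes held more markers of another class. The settings of the pelvic clustering were chosen after seeing marker genes of the clusters. The rule that only a class with 3 detected markers competes for a name was set after receptor levels had been seen, and the earlier rule is an added alternative. Doublets were left in, apart from the marker rule, and their removal is an alternative.

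UMIs were summed per library and class (at least 20 cells) or pelvic cluster (at least 10 cells in each library) and tested with the quasi-likelihood test of edgeR 4.0.16 after its filter on low counts, with adjusted p-values (Benjamini-Hochberg) over all genes tested and a threshold of 0.05. The block was the library, or the batch between ganglia. Each SE was worked back from the test, as the size of the log2 difference divided by the square root of the F statistic. It is an approximation and is not reliable for differences near 0 or for low counts. The test was run on simulated counts with known changes. These had 1 fixed dispersion, no batch, library or class differences apart from depth, and a minimum mean count for changed genes. The rates may therefore not hold for the real counts. On simulated counts the test recovered 99% of the changed genes at 4-fold and 24% at 2-fold for pelvic against sympathetic neurons (16804 genes). For the difference between neurons and glia it recovered 73% and 6% (15519 genes), and for the P2-like cluster 91% and 52% (12294 genes). CPM is the UMIs of a gene per 1000000 UMIs of the same sum. Poisson and Wilson intervals are at 95% and cover counting error only. For equal depth, cells were thinned to 4000 UMIs (neurons) or 2000 UMIs (others), and shallower cells were left out. Alternatives were other size factors, no filter on low counts, DESeq2 1.42.0, equal depth, doublet removal, neurons by log counts, other clusterings, no batch or library term, and leaving out each library.

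The receptors, related lists and tests were chosen with earlier results of these data known. Named genes are the 5 receptors, the related lists below, and the 3 genes nearest to each receptor with at least 100 UMIs, by correlation over class sums among genes of at least 10 CPM in any sum. The driver of the Cre transgene and 1 of the genes nearest to Esr1 are not reported here.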

Additional observations from a re-analysis of the deposited data

Results flagged for a closer look

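Receptor UMIs were also found in cells that entered no comparison. The 226 cells above the neuronal threshold that failed the glial rule held 37 UMIs of Esr1, 13 of Pgr, 121 of Nr3c1 and 6 of Nr3c2. Cells with epithelial and mesothelial markers (23 cells, 4 of 5 markers, leading genes Upk3b, Krt19 and Lrrn4, 87.0% from pelvic_1) held 14 UMIs of Esr1, or 33.3 CPM, and 30 of Nr3c1, or 71.3 CPM. Esr1 was there above its level in every named class and pelvic cluster, on few cells.

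A cluster of 331 cells outside the neuronal threshold, with 6 of 8 glial markers but led by the neuronal genes Calcb, Sst and Npy2r, held Esr1 at 5.75 CPM (44 UMIs), Pgr at 5.10 (39 UMIs), Nr3c1 at 23.7 and Nr3c2 at 1.18 CPM. A UMI of a neuronal marker was found in 99.6% of its cells, on the mean of the 4 markers, and the part of neurons or of doublets in these levels was not tested. In 266 cells led by Cfap61, Chga and C2cd4b, Nr3c1 was at 41.1 and Nr3c2 at 3.67 CPM. In 189 cells with smooth muscle genes (Rergl, Myh11), Esr1 was at 3.15 (5 UMIs) and Nr3c1 at 61.7 CPM, and in 126 cells with mast cell genes (Mcpt2, Mcpt4), Pgr was at 3.24 (7 UMIs) and Nr3c1 at 69.0 CPM.

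The unnamed pelvic cluster led by Cxcl10 (80 neurons, 72 of them from pelvic_1) had Esr1 at 15.1 CPM, Pgr at 1.71 (6 UMIs) and Nr3c1 at 25.9 CPM over both libraries, and Mal, a marker of glia, was among its leading genes. Only levels on more than 3 UMIs were listed in this section, and none of them was tested.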

How the results depend on the processing

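Receptors were compared under 469 alternative values. Of these, 408 kept their direction and side of the threshold, 28 lost and 5 gained a call, and 28 changed sign, all of values that were not called. The cause was not tested. No paired analysis was possible because the ganglia share only replicate number 1, so that no replicate block was fitted between them (the batch was a term, and classes were compared within libraries). Pelvic clusters could not be refitted without a library, since 1 library leaves no spread.

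With cells thinned to equal depth fewer genes were called: 6682 in neurons and 4158 in fibroblast-like, 4275 in endothelial-like and 2882 in mural-like cells against glia, 1779 in pelvic against sympathetic neurons and 414 in fibroblast-like cells, and 234 (P1-like, Htr7-led), 433 (P1-like, Gng8-led), 617 (P2-like), 562 (P3-like), 507 (P4-like) and 236 (Wscd1-led) among pelvic clusters, against 1380 to 3479 with all UMIs. Nr3c1 was then at 0.29 (adjusted p = 0.209) in fibroblast-like and 0.11 (0.731) in endothelial-like cells, both no longer called, and between pelvic and sympathetic fibroblast-like cells Pgr was at -0.31 and Nr3c1 at 0.11. Without the library term, Nr3c1 lost its call in fibroblast-like (0.41, adjusted p = 0.238), endothelial-like (0.37, 0.263) and mural-like cells (0.57, 0.123), and in endothelial-like cells Pgr was at 0.11 and Nr3c2 at 0.0105. Pgr changed sign in endothelial-like cells with RLE size factors (0.00592), without a filter on low counts (0.0103), under DESeq2 (0.36), with doublets removed (0.0192) and where every class competed for a name (0.29), and in mural-like cells under DESeq2 (1.68, on 0 UMIs).

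Without the batch term, 1086 genes were called between pelvic and sympathetic neurons in place of 2915, and Pgr was at 1.09 (adjusted p = 0.144). In glia and fibroblast-like cells 0 genes were called in place of 491 and 649 by edgeR, with 2174 and 2307 at an unadjusted p under 0.05 with the batch term, and Esr1 in fibroblast-like cells was at 1.88 (0.400). Without a filter on low counts 974 genes were called in glia, 1574 in fibroblast-like cells and 542 for the difference between neurons and glia (651 under DESeq2), Nr3c1 was at 0.57 in neurons (0.0259) and 0.00699 in fibroblast-like cells, and Pgr at 0.96 in the P3-like (0.0477) and 0.0341 in the Htr7-led cluster. Esr1 in fibroblast-like cells was at 1.90 under DESeq2 (0.169) and 1.88 without doublets (0.0794). Where every class competed for a name, 302 genes were called in fibroblast-like cells, Esr1 was at 1.28 (0.429) and Nr3c2 at 0.0125, and the difference between neurons and glia gave 132 genes.

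Among pelvic clusters, DESeq2 called 816 genes in the Htr7-led cluster, with Nr3c1 at -0.73 (adjusted p = 0.0662), and put Esr1 at -1.16 in the Wscd1-led cluster (0.0897). Without doublets Esr1 was at -1.06 there (0.0538), and Pgr was at -1.89 in the P2-like (0.0688) and 0.0161 in the Htr7-led cluster. At resolution 0.6 the P2-like cluster had 1563 genes and Nr3c1 at 0.52 (0.0699), and Pgr was at 1.13 in the P3-like cluster (0.0201). The P2-like cluster then held 191 cells in place of 352, and both clusters were compared with other clusters than in the main setting. Without batch correction Nr3c1 was at -0.98 in the P3-like cluster (0.000904). Of the named clusters only the P3-like and P4-like were followed there. The P2-like cluster then held 1 cell of pelvic_1 and 94 of pelvic_2 and was not tested.

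Leaving out 1 library at a time gave Nr3c1 at 0.36 to 0.47 in fibroblast-like, 0.19 to 0.53 in endothelial-like and 0.47 to 0.55 in mural-like cells, and in endothelial-like cells Pgr at -0.69 to 0.57 and Nr3c2 at -0.63 to 0.11. Between pelvic and sympathetic neurons it gave 654 to 4034 genes, Esr1 at 1.74 to 3.36, Pgr at 1.05 to 1.27 and Nr3c1 at 0.38 to 0.81. The lowest number, and 761 and 829 genes, came without the stellate, pelvic_1 and pelvic_2 libraries. In glia it gave 115 to 823 genes, Nr3c1 at -0.12 to 0.0344 and Nr3c2 at -0.0781 to 0.51, and in fibroblast-like cells Esr1 at 1.15 to 2.45, Nr3c1 at -0.10 to 0.12 and Nr3c2 at -0.50 to 0.39. The difference between neurons and glia gave 0 to 661 genes, with 0 without either pelvic library, and Esr1 at -2.48 to 1.88. Depth limits Esr2, Nr3c2 in neurons and all receptors but Nr3c1 in mural-like cells.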
